A study of Mus musculus with 2 samples.

Results

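Among 42766 cells of sorted microglia profiled by single-cell RNA sequencing, 192 cells held high counts of S-phase genes and almost no counts of mitotic genes. A cell was taken when the summed raw counts of Mcm2, Mcm3, Mcm4, Mcm5, Mcm6, Pclaf, Rrm2 and Tk1 reached 8, at least 4 of these 8 genes were detected, and the summed counts of Mki67, Top2a, Ube2c, Birc5, Prc1, Cenpf, Ccnb2 and Pbk stayed under 4. The cells came from PSAPP mice, which carry the APPswe and PS1.delta.E9 transgenes and deposit amyloid in the brain. All mice of both groups carried these transgenes, so wild-type microglia were not analysed here. From 9 to 10 months of age, mice received vehicle (VEH) or lemborexant (LEM), an orexin receptor antagonist used as a sleep medicine, by daily oral gavage for 30 days, LEM at 30 mg/kg per day. Cortex and hippocampus from 5 mice were pooled for each treatment, CD45lo CD11b+ DAPI- cells were sorted, and each pool gave 1 library. The cells counted here are those of the deposited table, which are fewer than the study's text gives, and 230 of the other VEH cells and 380 of the other LEM cells had counts of choroid plexus markers. Neither treatment has a second library, which left VEH and LEM without any test between them, and every interval given here covers counting error only (95%, exact). The VEH library held 59 of these cells and the LEM library 133.

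The Mcm genes encode the subunits of the ring-shaped helicase that is loaded on replication origins in G1 phase and unwinds DNA in S phase. Their transcription, and that of many other replication genes, is raised by E2F factors when a cell passes from G1 into S phase. Genes for dNTP production, replication-coupled histones and, later, mitosis follow as the cycle proceeds. Microglia renew themselves by local division, and in amyloid models they also divide around plaques.

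The label S-phase was only partly met. Mcm5 and Mcm6 were high in both libraries, but these genes, with Pclaf and Rrm2, were used to choose the cells, so their levels are a description. Pclaf, which encodes a PCNA-binding factor, had 12 counts in 5 of the 59 VEH cells and 14 counts in 10 of the 133 LEM cells. Rrm2, the S-phase subunit of ribonucleotide reductase, had 3 counts in 3 VEH cells and 3 counts in 3 LEM cells. Mcm genes supplied 93.9% of the S-gene counts in the VEH cells and 95.4% in the LEM cells. Genes for replication-dependent histones, whose mRNA accumulates during DNA synthesis, were not higher than in other cells either, as given with the histone values further on. Since the data thus go against part of the label, the cells are called Mcm-high cells from here on. Mitotic cells are those with 4 or more counts of the 8 mitotic genes, and all remaining cells are called other cells.

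A few promoters of genes on either side of the rule, and of 2 origin genes, are shown to let the letters before the start of each gene be compared, including cases that go against the more frequent pattern. E2F sites were searched as 4 forms, TTTCCCGC, TTTGGCGC, TTTCGCGC and TTTGCCGC, and the cell cycle homology region (CHR) found in many mitotic promoters as TTTGAA, each on both strands and with overlapping matches counted. Sequences and starts are from RefSeq on GRCm38.p6, with 250 bases before and 50 bases after the gene start, and the 170 bases just before the start are printed 5′ to 3′ on the strand of the gene. Capitals mark matched letters, merged where matches overlap. Mcm5 lies at chr8:75109339-75109508 (+), Mcm6 at chr1:128359706-128359875 (-), Mcm2 at chr6:88898781-88898950 (-), Orc1, the origin recognition subunit 1 gene, at chr4:108579284-108579453 (+) and Cdc6, a loader of the helicase, at chr11:98907981-98908150 (+). Rrm2 lies at chr12:24708084-24708253 (+), Ube2c, a ubiquitin-conjugating enzyme of the anaphase-promoting complex, at chr2:164769759-164769928 (+), and Top2a, DNA topoisomerase II alpha, at chr11:99024190-99024359 (-).
Mcm5: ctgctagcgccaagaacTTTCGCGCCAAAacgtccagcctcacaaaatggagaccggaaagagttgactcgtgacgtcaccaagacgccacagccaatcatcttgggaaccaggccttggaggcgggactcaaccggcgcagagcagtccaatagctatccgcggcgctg
Mcm6: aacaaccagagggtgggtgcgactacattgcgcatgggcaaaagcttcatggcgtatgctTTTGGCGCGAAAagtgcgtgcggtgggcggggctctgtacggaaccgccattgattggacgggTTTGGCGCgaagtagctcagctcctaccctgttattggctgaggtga
Mcm2: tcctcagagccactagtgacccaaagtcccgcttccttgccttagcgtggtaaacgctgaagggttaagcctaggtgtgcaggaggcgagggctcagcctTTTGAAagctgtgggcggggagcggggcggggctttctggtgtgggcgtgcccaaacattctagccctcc
Orc1: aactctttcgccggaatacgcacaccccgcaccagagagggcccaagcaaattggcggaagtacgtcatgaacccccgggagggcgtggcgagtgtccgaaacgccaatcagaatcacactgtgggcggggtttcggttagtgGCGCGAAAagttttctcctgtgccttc
Cdc6: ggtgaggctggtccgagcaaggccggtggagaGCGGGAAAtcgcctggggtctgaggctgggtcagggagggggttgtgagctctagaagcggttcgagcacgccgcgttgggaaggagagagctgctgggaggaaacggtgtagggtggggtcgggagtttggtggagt
Rrm2: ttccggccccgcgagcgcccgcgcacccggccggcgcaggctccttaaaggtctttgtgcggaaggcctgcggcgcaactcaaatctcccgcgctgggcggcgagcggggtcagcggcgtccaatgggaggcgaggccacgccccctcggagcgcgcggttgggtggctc
Ube2c: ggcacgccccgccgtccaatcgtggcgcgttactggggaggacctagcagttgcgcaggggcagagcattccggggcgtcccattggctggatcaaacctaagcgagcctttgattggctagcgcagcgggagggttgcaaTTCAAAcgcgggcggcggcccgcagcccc
Top2a: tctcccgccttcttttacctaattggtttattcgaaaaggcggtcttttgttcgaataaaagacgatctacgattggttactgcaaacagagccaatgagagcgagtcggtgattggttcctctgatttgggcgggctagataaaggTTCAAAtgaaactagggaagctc
The windows of Mcm5, Mcm6, Orc1 and Cdc6 hold at least 1 E2F form and no CHR, those of Ube2c and Top2a hold a CHR and no E2F form, and that of Rrm2 holds neither. Mcm2, an S gene of the rule, holds a CHR and no E2F form, as the printed mitotic promoters do. Over all 27025 genes with a promoter, 2.32% held an E2F form and 18.1% a CHR in the full 300 bases. Of the S genes of the rule, 4 of the 7 with a promoter in the table (Mcm3, Mcm5, Mcm6 and Pclaf) held an E2F form, Mcm2 held a CHR, and Rrm2 and Tk1 held neither. Of the mitotic genes of the rule, 0 of 7 held an E2F form and 6 held a CHR, with Birc5 holding neither. A match is only a string of letters, and no match says only that these letters are not in the window.

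The Mcm-high cells were 0.321% of the VEH library (59 of 18374 cells, interval 0.245% to 0.414%) and 0.545% of the LEM library (133 of 24392 cells, 0.457% to 0.646%). The LEM share was 1.70 times the VEH share, a log2 ratio of 0.76 (0.31 to 1.23). The intervals of the 2 shares do not overlap, but they leave out the differences between mice, which pooling hides. For mitotic cells the shares lay closer together, with 153 cells (0.833%) in VEH and 223 cells (0.914%) in LEM (log2 ratio 0.13, -0.17 to 0.44). There were thus 0.386 Mcm-high cells for each mitotic cell in VEH and 0.596 in LEM (log2 ratio 0.63, 0.08 to 1.19). Within the Mcm-high cells, those with a mitotic count of 0 made the larger part of the difference, 44 in VEH and 112 in LEM (log2 ratio 0.94, 0.42 to 1.48). Cells with 1 to 3 mitotic counts numbered 15 and 21 (0.08, -0.95 to 1.14).

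Each pool held female and male mice, which single cells reveal through Xist, the RNA of the inactive X chromosome, and 4 Y-linked genes. Of the cells that had Xist counts but none of the Y-linked genes, 28 of 5686 VEH cells (0.492%) and 57 of 8409 LEM cells (0.678%) were Mcm-high, a log2 ratio of 0.46 (-0.22 to 1.17). Of those that had Y-linked counts but no Xist, 21 of 9025 VEH cells (0.233%) and 60 of 11223 LEM cells (0.535%) were Mcm-high, a log2 ratio of 1.20 (0.46 to 1.99). The LEM share of Mcm-high cells was above the VEH share in cells of both sexes. For mitotic cells, LEM over VEH was a log2 ratio of -0.42 (-0.96 to 0.12) in female cells. In male cells it was 0.31 (-0.11 to 0.74). Female cells were Mcm-high more often than male cells in VEH (log2 ratio 1.08, 0.21 to 1.97), and in LEM the interval of that ratio included 0 (0.34, -0.21 to 0.89). Mitotic cells stood the other way round in LEM, where the female share was the lower one (log2 ratio -0.54, -0.999 to -0.09). How many mice of each sex entered a pool cannot be read from the cells.

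**Figure D1:**
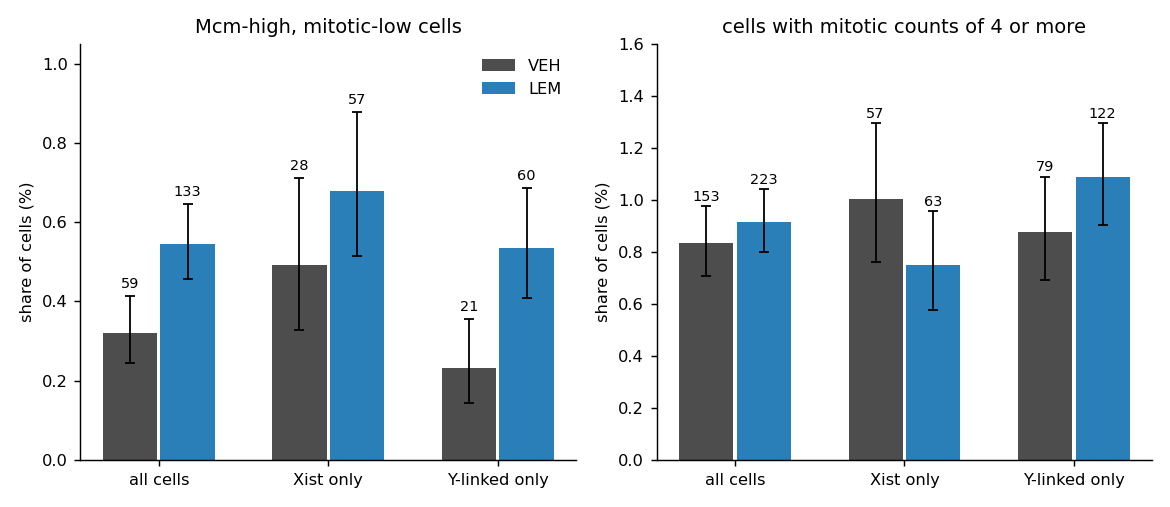
Share of cells (percent, bars, axis from 0) that were Mcm-high or mitotic in the VEH and LEM libraries, for all cells, cells with Xist only and cells with Y-linked genes only. Error bars are exact 95% binomial intervals and numbers give the cells. The LEM bar of the Mcm-high cells is higher in all 3 sets, 0.545% against 0.321% over all cells, while the mitotic bars lie closer together over all cells.

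Because the rule counts transcripts, a cell with more counts meets it more easily. The median total was 9968 counts in the Mcm-high cells of VEH and 10252 in those of LEM, against 5944 and 5996 in other cells. Under 4000 counts, 1 of 3962 VEH cells and 1 of 4252 LEM cells were Mcm-high (log2 ratio -0.10, -6.40 to 6.19), too few to give an order. In cells of 4000 to 8000 counts, 10 of 10237 VEH cells (0.0977%) and 29 of 14451 LEM cells (0.201%) were Mcm-high. From 8000 to 12000 counts the shares were 1.02% (31 cells) and 1.54% (59 cells), and from 12000 to 20000 counts 1.49% (17 cells) and 2.37% (44 cells). The share was higher in deeper cells of each library, and in the 3 ranges from 4000 counts up LEM lay above VEH by log2 ratios of 1.04 (-0.04 to 2.24), 0.59 (-0.06 to 1.27) and 0.66 (-0.17 to 1.57), each with an interval that includes 0. When each cell of at least 4000 counts was thinned to 4000, the rule kept 9 of 14412 VEH cells (0.0624%) and 11 of 20140 LEM cells (0.0546%), too few to carry an order. The log2 ratio of Mcm-high per mitotic cell was -0.25 on those thinned counts, the reverse of that given above. A lower rule on the thinned counts (S sum at least 4, at least 3 genes, mitotic sum under 2), chosen after seeing the data, gave 88 cells (0.611%) in VEH and 152 cells (0.755%) in LEM, and a log2 ratio per mitotic cell of 0.30.

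**Figure D2:**
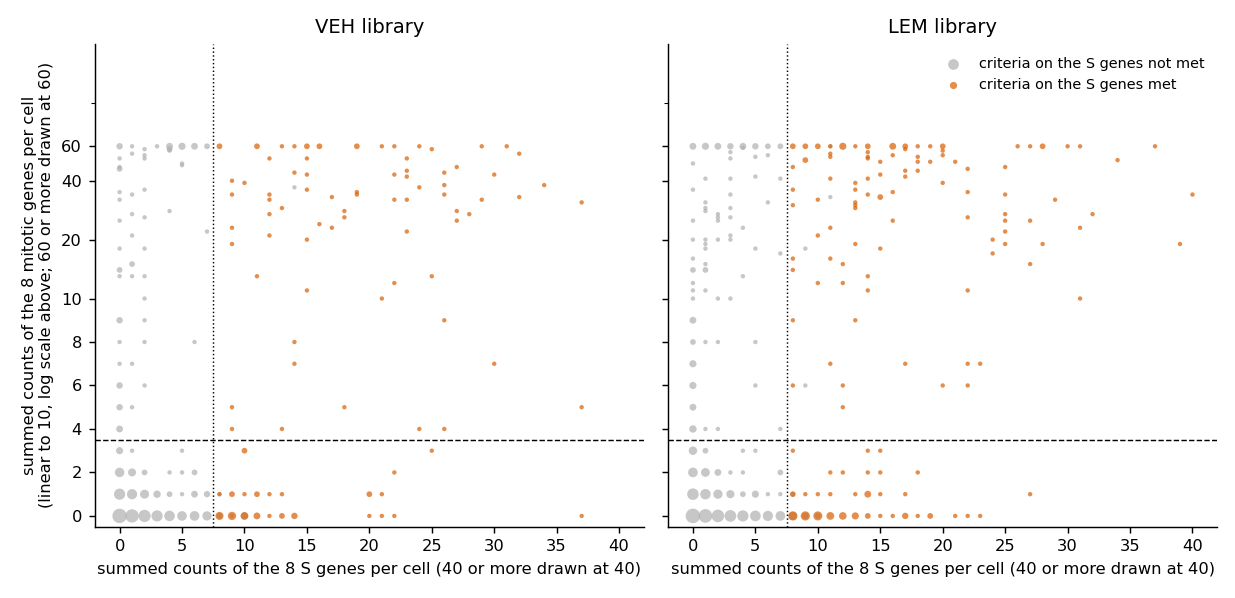
Summed raw counts of the 8 S genes (horizontal axis, 40 or more drawn at 40) against those of the 8 mitotic genes (vertical axis, linear to 10 and logarithmic above, 60 or more drawn at 60) in each cell of the VEH and LEM libraries. Larger points hold more cells, orange marks cells that met the criteria on the S genes, the dotted line lies below 8 and the dashed line below 4. The Mcm-high cells are the orange points under the dashed line, and 44 of 59 VEH cells and 112 of 133 LEM cells lie at a mitotic sum of 0.

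Cells lay on both sides of each threshold, without a gap in VEH. The S sum ran from 8 through a median of 10 to 37 in VEH and from 8 through 10 to 27 in LEM, and the cells detected a median of 5 and at most 7 of the 8 genes. Just inside the threshold, 11 VEH and 31 LEM cells had a sum of 8, and just outside it 19 VEH and 27 LEM cells that met the other criteria had a sum of 7. On the mitotic side, 3 cells of each library had a sum of 3, and 4 VEH cells and 0 LEM cells that met the S criteria had a sum of 4. At a minimum sum of 6 the counts were 107 VEH and 198 LEM cells, and at 12 they were 17 and 39. At a minimum of 20 the order was reversed, with 9 VEH cells and 4 LEM cells.

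The cells carried the defining markers of microglia throughout. P2ry12, a purinergic receptor of resting microglia, was detected in all 59 and all 133 cells, with 1, 42 and 76 counts as lowest, median and highest in VEH and 6, 40 and 100 in LEM. Tmem119 had 3, 19 and 43 counts in VEH and 2, 18 and 52 in LEM. Cx3cr1, the fractalkine receptor, was likewise found in every cell. Markers that set apart other brain and blood cells were mostly at 0, with a few genes at the level of other cells. Of the 9 border-associated macrophage markers, 8 were at 0 in each library, and their summed level was 1.59 CPM (counts scaled to a total of 1000000) in VEH and 0.693 CPM in LEM, against 9.51 and 13.7 CPM in other cells. The choroid plexus markers summed to 3.18 CPM in VEH and 0 in LEM, against 446 and 1351 CPM in other cells, and the monocyte markers to 1.59 and 5.54 CPM, against 8.30 and 9.49 CPM. The neutrophil list summed to 242 and 275 CPM, against 326 and 357 CPM in other cells, all of it from Csf3r, the G-CSF receptor gene, with the other 7 markers at 0. B-cell markers summed to 122 and 108 CPM, against 111 and 112 CPM in other cells, carried by Ighm and Cd79b with Cd79a, Ms4a1 and Iglc2 at 0. Oligodendrocyte markers summed to 121 and 105 CPM, against 107 and 110 CPM, with Mog, Mobp, Pdgfra, Olig1 and Olig2 at 0. In the T and NK list, Klrd1 alone was detected (4.77 and 11.1 CPM in sum). Endothelial and mural markers summed to 23.8 and 18.02 CPM, against 14.3 and 11.1 CPM, with Cldn5 at 0, and astrocyte markers to 0 and 4.16 CPM. Of the 15 neuron counts in LEM, 13 were Tubb3 counts of 1 cell. The part of these levels in the results was not tested. Scrublet, a caller of doublets (droplets with more than 1 cell), marked 4 VEH cells (6.78%) and 10 LEM cells (7.52%), against 9.87% and 9.86% of other cells. Genes of both sexes were found together in 7 (11.9%) and 11 (8.27%) Mcm-high cells, against 5.32% and 7.21% of other cells.

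The 5 Mcm genes of the rule were detected in most of the cells. Mcm3 was found in 55 VEH cells and 129 LEM cells, Mcm6 in 56 and 124, and Mcm5 in 53 and 123. Mcm6 stood at 281 CPM in the Mcm-high cells of VEH against 10.96 CPM in other cells, and at 227 against 12.5 CPM in LEM. Mcm2 stood at 143 against 4.46 CPM in VEH and 113 against 5.54 CPM in LEM. The rule itself fixes these differences, and they are given to show the scale. Tk1, the cytosolic thymidine kinase, was found in 14 of 59 and 30 of 133 cells, with 28 and 50 counts.

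The replication genes that the rule did not use were high in the same cells. Of 53 such genes for origin licensing, the helicase, the fork and the polymerases, 51 were detected in at least 5% of the Mcm-high or of the other cells in both libraries. Among these, 40 were at least 2-fold higher in the Mcm-high cells of both libraries, while over all genes tested at this detection minimum 2.77% were 2-fold higher and 0.21% 2-fold lower. Genes could pass the minimum only through the Mcm-high cells, with other cells under it in either or both libraries. This favours a higher level there without fixing it, as the Mcm-high cells are also deeper. Of the 51 genes, 25 passed in that way. Among the other 26, detected in at least 5% of other cells as well, 16 were at least 2-fold higher and 24 were higher in both libraries, with a median log2 ratio of 1.58 in VEH and 1.33 in LEM, against -0.002 and -0.003 over all 9084 genes detected in at least 5% of other cells. Over those 9084 genes, 1.18% were at least 2-fold higher in both libraries, 33.7% were higher by any amount and 34.2% were lower, and later counts over genes detected in other cells can be read against these shares. Per cell, the summed level of the 53 genes ran from 875 through a median of 2453 to 7424 CPM in VEH and from 555 through 2515 to 10592 CPM in LEM, where the median of other cells was 686 and 695 CPM. The sum exceeded the level under which 90% of other cells stayed in 54 VEH cells (91.5%) and 110 LEM cells (82.7%).

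Of 23 listed genes of origin licensing and the helicase, 21 passed the minimum, 12 of them through the Mcm-high cells alone. Of the other 9, 3 were at least 2-fold higher, 7 were higher and 2 were lower in both libraries, with a median log2 ratio of 0.91 in VEH and 1.00 in LEM. The largest ratios, as that of Cdc6, stand over levels near 0 in other cells. Cdc6, Gmnn, Orc1, Cdc45, Gins2 and Cdc7 were among the 12, a route that favours genes higher in the Mcm-high cells. Cdc6 had 11 and 26 counts in the VEH and LEM cells. Its level was 17.5 CPM against 0.19 CPM in other VEH cells and 18.02 against 0.18 CPM in LEM, with log2 ratios of 6.50 (5.31 to 7.61) and 6.66 (5.83 to 7.48). Cdt1, which brings the helicase to the origin, stood at 122 against 9.77 CPM in VEH and 85.2 against 10.9 CPM in LEM (log2 ratio 3.65 and 2.96). Its inhibitor Gmnn (geminin), a protein that is itself made from S phase on, had log2 ratios of 3.42 and 3.22. Mcm7, the helicase subunit that the rule leaves out, stood at 126 against 11.8 CPM in VEH and at 114 against 14.8 CPM in LEM. It was detected in 57.6% and 63.9% of the cells, against 6.75% and 8.57% of other cells. The subunits of the origin recognition complex differed among themselves. Orc1, the subunit whose promoter is printed above, had log2 ratios of 2.27 and 2.94 and Orc6 of 2.04 and 1.76, while Orc3 (0.16 and 0.01), Orc4 (-0.08 and -0.04) and Orc5 (-0.11 and -0.05) stood at the level of other cells. Cdc45 and Gins2, which join the Mcm ring to form the active helicase, had log2 ratios of 4.35 and 4.09 and of 3.83 and 3.08. Cdc7, the kinase that fires origins, had 3.38 and 3.85, and its activating subunit Dbf4 had 0.74 and 0.71.

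At the replication fork all 30 listed genes were higher than in other cells in both libraries, 26 of them at least 2-fold, and 13 of the 30 passed the detection minimum through the Mcm-high cells alone. Of the other 17, 13 were at least 2-fold higher, with a median log2 ratio of 1.74 in VEH and 1.35 in LEM. Clspn, Pole, Timeless and Prim1 passed through the Mcm-high cells alone, which favours a higher level there, and their ratios stand over low levels in other cells. Clspn, the checkpoint adaptor that travels with the fork, had log2 ratios of 6.72 and 5.67, and Pole, the leading-strand polymerase, of 5.81 and 5.39. Lig1, which joins Okazaki fragments, stood at 148 against 9.08 CPM in VEH and 88.7 against 9.47 CPM in LEM. Pcna, the sliding clamp, is expressed broadly and stood at 223 against 59.5 CPM in VEH and 144 against 50.6 CPM in LEM, with log2 ratios of 1.90 (1.65 to 2.15) and 1.51 (1.31 to 1.71). Timeless, part of the fork protection complex, had log2 ratios of 4.94 and 4.31, and Prim1, the primase, of 4.24 and 3.95.

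Genes for dNTP supply were less uniform. Of 22 listed genes, 21 passed the 5% minimum, 5 of them through the Mcm-high cells alone. Of the 16 detected in other cells too, 6 were at least 2-fold higher in both libraries, with a median log2 ratio of 1.19 in VEH and 0.996 in LEM. Dut, which removes dUTP and passed through the Mcm-high cells alone, had log2 ratios of 4.11 and 4.01. Rrm1, the large subunit of ribonucleotide reductase, stood at 108 against 16.1 CPM in VEH and 61.7 against 15.6 CPM in LEM, while its partner Rrm2 stayed at 4.77 and 2.08 CPM. Of 22 chromatin assembly genes, 6 passed through the Mcm-high cells alone, and 8 of the other 16 were at least 2-fold higher in both libraries (median 1.10 and 1.06). The largest ratios stand over levels near 0 in other cells. Uhrf1, which reads hemimethylated DNA behind the fork, had log2 ratios of 6.68 and 5.69, Chaf1b, a histone chaperone subunit, of 5.33 and 4.55, and Hells, a chromatin remodeler, of 4.54 and 5.002. Uhrf1, Chaf1b and Hells were among the 6 that passed through the Mcm-high cells alone, which favours a higher level there.

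**Figure D3:**
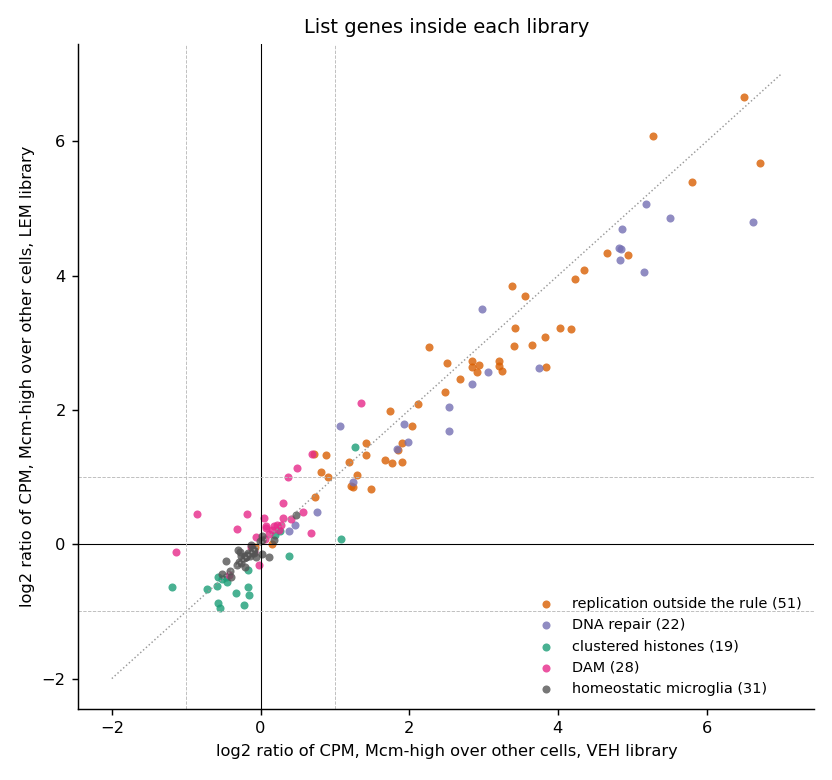
Log2 ratio of the level in Mcm-high cells over other cells in the VEH library (horizontal axis) and the LEM library (vertical axis), 1 point for each list gene detected in at least 5% of either kind of cell in both libraries, coloured by list. Replication (51 genes) and DNA repair (22) points extend to the upper right along the diagonal, where 25 and 15 of them passed the minimum through the Mcm-high cells alone, while histone (19), disease-associated (28) and homeostatic (31) genes lie around 0.

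Histone genes stood apart from the replication genes. Of 30 replication-dependent histone genes in the clusters, 19 passed the 5% minimum, 3 of them through the Mcm-high cells alone. Of the other 16, 0 were 2-fold higher, 2 were higher and 14 were lower in both libraries, with a median log2 ratio of -0.46 in VEH and -0.63 in LEM. Hist1h1a (1.27 and 1.45), the only one 2-fold higher of the 19, was among the 3 that passed through the Mcm-high cells alone. Hist1h1e, a linker histone gene, had 224 and 464 counts and was at 356 against 401 CPM in VEH and at 322 against 417 CPM in LEM. Hist1h2ae stood at 58.8 against 86.1 CPM in VEH and at 42.3 against 81.4 CPM in LEM. In cells that met both the S and the mitotic criteria, Hist1h2ae reached 1043 CPM in VEH and 893 CPM in LEM. Most mRNA of this histone class lacks a poly(A) tail, and the part of this in the measured levels was not tested.

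The cells that met the S criteria and also had 4 or more mitotic counts (78 in VEH, 114 in LEM) share the S side of the rule, and are called dual cells. The Mcm genes were as high or higher in the Mcm-high cells, from a log2 ratio of 0.23 for Mcm5 in VEH to 1.21 for Mcm2 in VEH. The remaining S genes of the rule lay far lower. Pclaf stood at 19.1 CPM in the Mcm-high cells and 264 CPM in the dual cells of VEH and at 9.70 and 240 CPM in LEM. For Rrm2 the levels were 4.77 and 331 CPM in VEH and 2.08 and 308 CPM in LEM, and for Tk1 the log2 ratio was -3.19 and -3.30. Since dual cells were chosen by the same genes, these values are a description. Over all genes detected in at least 5% of either kind, 1.55% were at least 2-fold higher and 8.07% at least 2-fold lower in the Mcm-high cells of both libraries. Genes outside the rule differed from list to list. Counts are given over genes detected in at least 5% of both kinds in both libraries. Passing through the dual cells alone favours a lower level in the Mcm-high cells. Over all 9538 such genes, 0.933% were 2-fold higher and 5.28% 2-fold lower in both libraries, with medians of -0.01 and -0.03. Of 51 replication genes, 0 were 2-fold higher and 12 were 2-fold lower than in dual cells (median log2 ratio -0.59 and -0.65), and of 19 histone genes 17 were 2-fold lower (median -2.31 and -2.30). Of 21 G2/M genes outside the rule, 21 were at least 2-fold lower (median -3.07 and -3.45), and a further 31 passed through the dual cells alone. Since mitotic counts separate dual from Mcm-high cells, the G2/M values are a description as well. Timeless (0.65 and 0.91) and Cdca7, a chromatin gene whose product works with Hells (0.75 and 1.06), stood above the dual cells. Each was the only gene of its list higher in both libraries. The list medians were -0.65 and -0.73 for 30 fork genes and -0.91 and -1.01 for 22 chromatin assembly genes, 8 of them 2-fold lower. Of 31 homeostatic genes, 1 (Ltc4s, named after its values were seen) was 2-fold higher in the Mcm-high cells of both libraries. In this list 0 were 2-fold lower, with a median of 0.38 and 0.34.

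Ordered by mitotic counts, the levels differed in steps, and cells of both libraries were pooled here only to describe them. From other cells to Mcm-high cells with a mitotic sum of 0, then 1 to 3, then dual cells and mitotic cells without the S criteria, Mcm6 stood at 11.8, 231, 296, 151 and 12.9 CPM. Cdt1 peaked in the same place at 10.4, 72.2, 200, 85.7 and 10.0 CPM, and so did E2f1 at 2.20, 54.9, 142, 66.9 and 6.46 CPM. Pclaf came later, at 0.47, 1.79, 58.2, 250 and 37.6 CPM. Rrm2 followed the same order, at 0.08, 1.19, 10.1, 317 and 42.3 CPM, and Tyms, thymidylate synthase, stood at 12.4, 42.3, 93.6, 314 and 61.7 CPM. Hist1h1b, a linker histone gene, was at 0.46, 2.39 and 2.53 CPM in the first 3 kinds and at 357 and 238 CPM in the last. Among the Mcm-high cells, Rrm2 was detected in 3 VEH and 3 LEM cells and Hist1h1b in 1 and 2, so their levels there rest on few counts. Cdkn1a, which encodes the CDK inhibitor p21, was at 24.2, 21.5 and 38.0 CPM and then at 868 and 539 CPM. Only 36 cells had a mitotic sum of 1 to 3, and the mitotic axis was used to sort the cells, so the order of steps is not a measured time course. Mcm6, Pclaf and Rrm2 are also S genes of the rule. Other cells and mitotic cells without the S criteria were set apart by failing those criteria. The levels of these genes are thus in part fixed by the choice of cells and are a description.

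**Figure D4:**
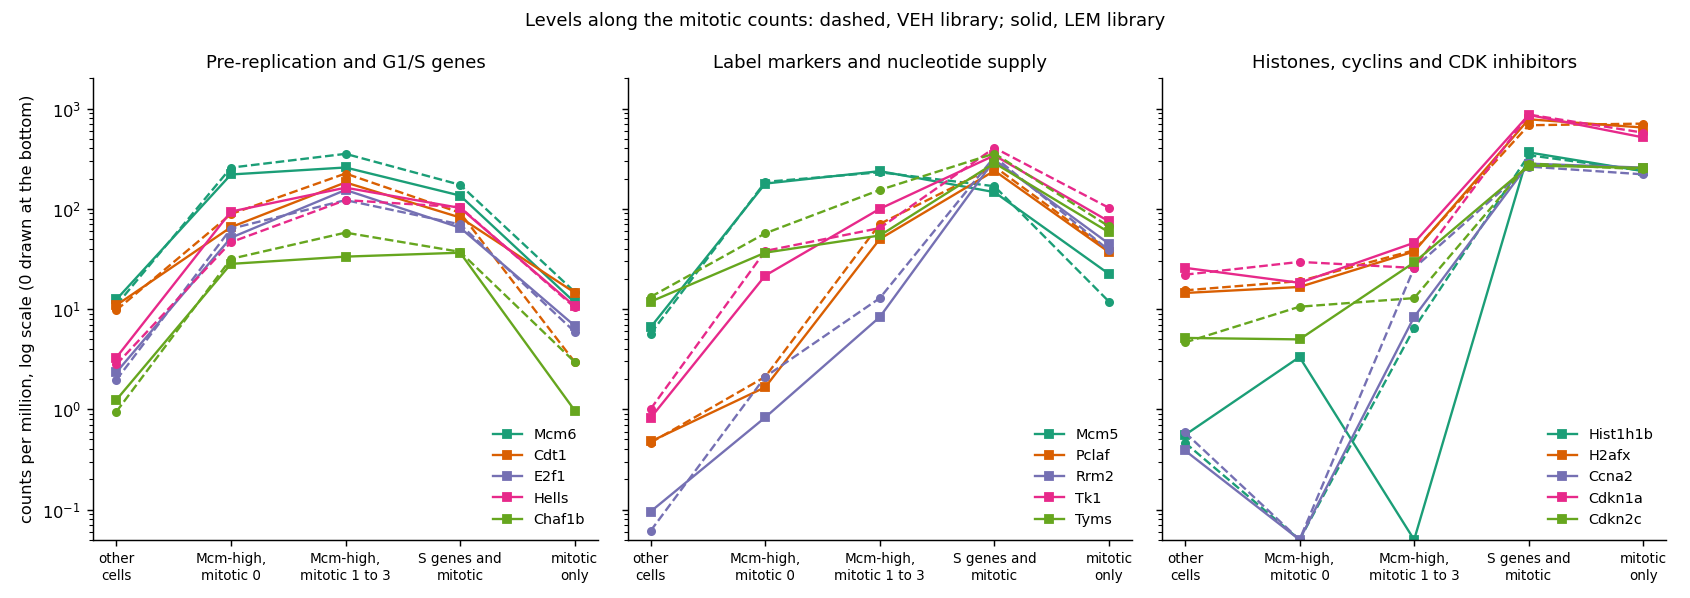
Level in CPM (log axis, a level of 0 drawn at the bottom) of 15 genes in 3 panels, over other cells, Mcm-high cells with a mitotic sum of 0 and of 1 to 3, cells meeting both criteria, and mitotic cells without the S criteria, with dashed lines for VEH and solid lines for LEM. Mcm6, Cdt1 and E2f1 are high in the Mcm-high cells and in the cells meeting both criteria, and in mitotic cells without the S criteria Mcm6 and Cdt1 lie near the level of other cells, whereas Pclaf, Rrm2 and Hist1h1b reach their highest levels in the cells meeting both criteria. Mcm5, Mcm6, Pclaf, Rrm2 and Tk1 were used to choose the cells, so their levels are a description.

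Regulators of the G1/S step were higher only in part. Of 21 listed genes, 15 passed the minimum, 4 of them through the Mcm-high cells alone. Of the other 11, 5 were at least 2-fold higher in both libraries, with a median log2 ratio of 0.83 and 0.51. E2f1, the activating E2F gene that is itself an E2F target, had 49 counts in 26 VEH cells and 99 counts in 59 LEM cells. It passed through the Mcm-high cells alone, as did Ccne2. The level of E2f1 was 77.9 against 1.96 CPM in VEH and 68.6 against 2.34 CPM in LEM, with log2 ratios of 5.31 (4.83 to 5.76) and 4.87 (4.54 to 5.20). Ccne2, cyclin E2, had log2 ratios of 3.81 and 3.13 and Cdk4, the partner of the D cyclins, of 1.19 and 1.15. The D cyclins did not follow, with Ccnd1 at 0.07 and 0.24 and Ccnd3 at -0.86 and -0.42. Among 15 genes of CDK inhibition and quiescence, 11 were detected in other cells too, 0 of these differed 2-fold in either direction and 9 were lower in both libraries. Klf2, a transcription factor of quiescent cells, stood at 262 against 458 CPM in VEH and at 148 against 260 CPM in LEM, with log2 ratios of -0.80 and -0.82.

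Most S-phase repair genes passed the minimum only through the Mcm-high cells. Of 25 listed genes, 22 passed and 18 were at least 2-fold higher in both libraries, but 15 passed through the Mcm-high cells alone. The other 7 were all higher in both libraries, 3 of them at least 2-fold, with a median of 1.24 and 0.93. The largest ratios belong to genes that passed through the Mcm-high cells alone, which favours a higher level there, over levels near 0 in other cells. Exo1, an exonuclease of mismatch repair and resection, had log2 ratios of 6.62 and 4.80, Ung, which removes uracil, of 5.50 and 4.87, and Brca1 of 5.18 and 5.07. For Exo1, 1 cell held 34.6% of the counts in VEH and 14.3% in LEM. Target genes of p53 lay near the background. Of 10 detected in other cells too, 0 were 2-fold higher, 2 were higher in both libraries and 4 were lower, against 33.7% higher and 34.2% lower over all genes. Of 52 G2/M genes outside the rule, 21 passed, 15 of these through the Mcm-high cells alone, and 3 of the other 6 were 2-fold higher. Cdk1, the mitotic kinase, which passed through the Mcm-high cells alone, stood at 33.4 against 2.59 CPM in VEH and 26.3 against 2.84 CPM in LEM, and Stmn1, a microtubule regulator, had log2 ratios of 3.82 and 3.21.

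Over all 8524 genes detected in at least 10% of Mcm-high or other cells in both libraries, 210 genes (2.46%) were at least 2-fold higher and 6 genes (0.0704%) at least 2-fold lower in the Mcm-high cells of both. Of the 210, 162 passed through the Mcm-high cells alone. Outside the lists the highest was Dtl, the substrate adaptor of the ubiquitin ligase that destroys Cdt1 at the fork, at 60.4 against 0.73 CPM in VEH and 37.4 against 0.82 CPM in LEM (log2 ratio 6.38 and 5.51). Tcf19 (5.56 and 5.29), Pkmyt1 (5.48 and 5.12), Fignl1 (5.03 and 5.16), Wee1 (5.34 and 4.56) and Cenpk (4.68 and 4.24) followed. Dtl and all of these were among the 162 genes, Dtl being detected in 0.31% and 0.47% of other cells. This route favours genes that are higher in the Mcm-high cells. Pkmyt1 and Wee1 encode the kinases that hold CDK1 inactive before mitosis, and Fignl1 acts in recombination. The 6 lower genes were Tcp11l2, Pirb, Kdm5b, Wdpcp, Phf1 and Ccng2, most with few counts. The number lower depended on the processing, with 2 such genes when other cells were weighted to the depths of the Mcm-high cells, 1 at a minimum S sum of 6 and 74 at 12. Tcp11l2 had 5 and 10 counts (log2 ratio -1.68 and -1.79) and Kdm5b, a histone demethylase gene, 9 and 30 (-1.59 and -1.02). Ccng2, which encodes cyclin G2, had 38 and 94 counts and stood at 60.4 against 132 CPM in VEH and 65.1 against 134 CPM in LEM. Of the 210 higher genes, 165 had a promoter in the table and 46 of these (27.9%) held an E2F form, against 326 of 6862 (4.75%) of all genes that passed the minimum. These 210 genes include Mcm genes of the rule and the 162 genes above. Without the genes of the rule, and among genes detected in at least 10% of other cells too, 10 of 34 higher genes (29.4%) held an E2F form, against 246 of 5810 (4.23%). The E2F forms were found in 8 of 18 origin genes (44.4%), 8 of 25 fork genes (32%), 0 of 21 dNTP genes and 0 of 22 homeostatic genes. They were also found in 5 of 17 repair genes (29.4%), 3 of 19 chromatin assembly genes (15.8%) and 5 of 42 G2/M genes (11.9%). A CHR was found in 30 of 42 G2/M genes (71.4%), 5 of 19 chromatin assembly genes (26.3%), 4 of 18 origin genes (22.2%), 4 of 21 dNTP genes (19.0%), 1 of 17 repair genes (5.88%) and 1 of 25 fork genes (4%), against 18.1% of all promoters.

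Homeostatic and disease-associated genes differed little in their medians from other cells, with single genes that stood apart. All 31 homeostatic genes in the table passed, 0 differed 2-fold and 24 were slightly lower in both libraries, where 34.2% of all genes were lower, with a median log2 ratio of -0.18 in VEH and -0.17 in LEM. Of 34 disease-associated microglia (DAM) genes in the table, 28 passed, 4 of them through the Mcm-high cells alone, and of the other 24, 0 were 2-fold higher and 15 were higher in both libraries. The DAM median over the 28 was 0.13 in VEH and 0.27 in LEM, and it was -0.12 and 0.03 when other cells were weighted to the same depths, so its sign in VEH depends on that choice. Lpl, lipoprotein lipase, was 2-fold higher in both libraries but passed the minimum through the Mcm-high cells alone. It had 39 counts in VEH and 149 in LEM, 62.0 against 24.4 CPM and 103 against 24.0 CPM, and was detected in 20.3% and 18.05% of the cells against 4.87% and 4.58% of other cells. In VEH 1 cell held 38.5% of its counts, and in LEM 17.4%. Apoe, also of this list, was lower in VEH (log2 ratio -1.14) and near other cells in LEM (-0.11), with its levels given further on. Trem2, the lipid receptor gene of the DAM program, stood at 2158 against 2363 CPM in VEH and 2326 against 2383 CPM in LEM. Other lists differed by small amounts. Counts in the following lists are over genes detected in at least 5% of other cells, of which 33.7% were higher in both libraries over all genes. Ribosome biogenesis genes had a median of 0.60 and 0.42, with 18 of 23 higher in both libraries, and glycolysis genes of 0.50 and 0.59, with 13 of 16 higher, or 0.30 and 0.45 with other cells weighted to the same depths. Nop56, a factor of rRNA modification, had log2 ratios of 1.32 and 0.94. Proteasome genes (22 of 25 higher, 0.27 and 0.25), oxidative phosphorylation genes (26 of 32 higher, 0.20 and 0.14) and ribosomal protein genes (22 of 24 higher, 0.12 and 0.22) lay slightly above other cells. With the same weighting, the medians over all genes of a list that passed were -0.01 and 0.11 for ribosomal proteins and 0.14 and 0.06 for oxidative phosphorylation, so that the ribosomal protein list was not above other cells in VEH. Genes for mitogen receptors and their signalling did not, with 12 of 17 lower in both libraries and medians of -0.13 and -0.16. Immediate early genes, which also respond to tissue dissociation, had medians of -0.22 and -0.40, and the dissociation list itself -0.09 and -0.35, which became 0.02 and -0.26 under that weighting. Cholesterol synthesis genes had medians of 0.31 and 0.49, with 7 of 13 higher in both libraries, and 0.10 and 0.43 under that weighting.

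Of 16 interferon genes that passed, 5 did so through the Mcm-high cells alone. The other 11 had a median log2 ratio of 0.62 in VEH and 0.48 in LEM, and 9 were higher in both libraries. Ifitm3 stood at 118 against 31.7 CPM in VEH and 98.4 against 48.0 CPM in LEM. It was detected in 27.1% and 21.8% of the Mcm-high cells, and 1 cell held 33.8% of its counts in VEH and 18.3% in LEM. In VEH, 1 cell held 22.7% of all interferon counts of the 59 cells, and in LEM the highest cell held 5.44%. MHC class II genes were not higher (medians -0.36 and 0.03, or -0.51 and -0.17 with other cells weighted by depth), and 1 cell held 27.3% of their counts in VEH and 20.9% in LEM.

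**Figure D5:**
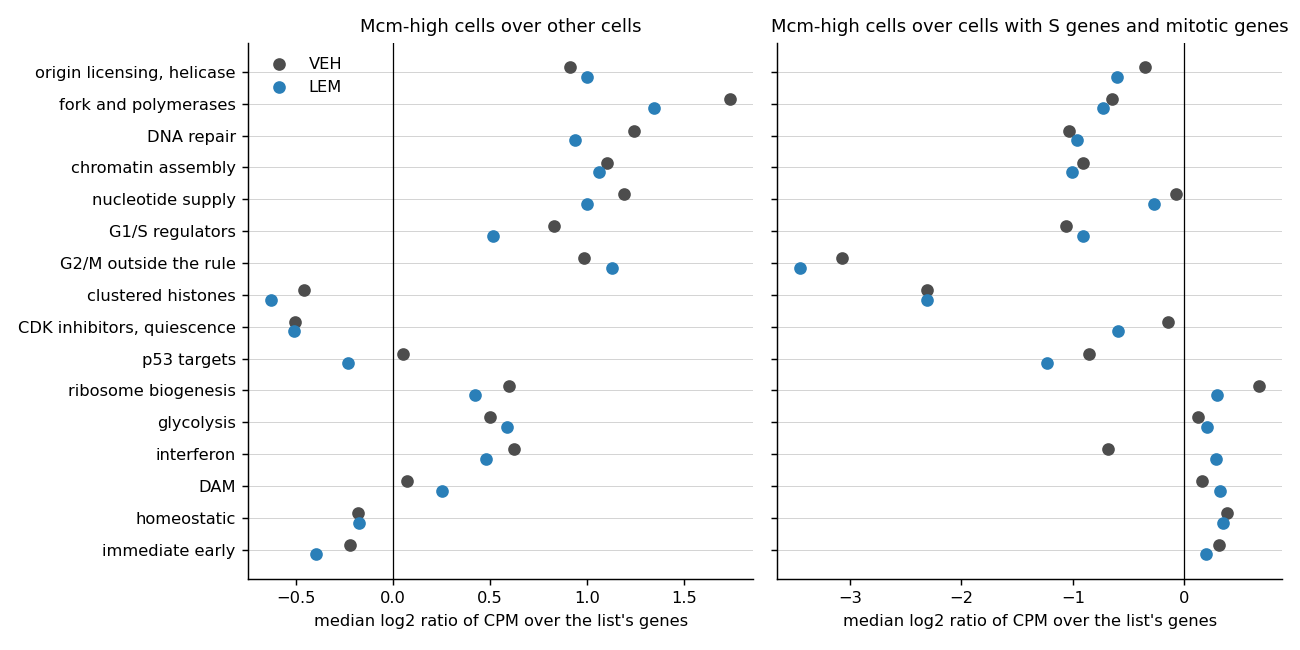
Median log2 ratio of the genes of each list in Mcm-high cells over other cells and over cells meeting both the S and the mitotic criteria, with VEH and LEM as separate points for each of 16 lists. Medians on the left are over genes detected in at least 5% of other cells, those on the right over genes detected in at least 5% of both kinds. Fork genes lie at 1.74 and 1.35 and repair genes at 1.24 and 0.93 over other cells, both lists lie below 0 over the cells meeting both criteria, and histone and G2/M genes lie at or below -2.30 there.

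Between treatments, replication genes took in sum a smaller share of the counts in the Mcm-high cells of LEM than in those of VEH, but the level of the median cell was not lower. The 53 replication genes outside the rule summed to 3003 CPM in VEH and 2523 CPM in LEM (log2 ratio -0.25, -0.33 to -0.17), against 738 and 752 CPM in other cells. Per cell the medians were 2453 CPM in VEH and 2515 CPM in LEM, while the upper quartiles stood apart at 4514 and 3567 CPM. Within cells of a mitotic sum of 0 the levels were 2492 and 2283 CPM, and within those of 1 to 3 they were 4561 and 3724 CPM. The LEM level was the lower in both steps, and cells of a mitotic sum of 1 to 3 were 15 of 59 in VEH and 21 of 133 in LEM. Over 9373 genes detected in at least 10% of the cells of either library, 291 (3.1%) were at least 2-fold higher and 272 (2.9%) at least 2-fold lower in LEM, nearly equal numbers on both sides. A gene needed to be detected in 1 of the libraries only, which favours genes that differ between them. Over the 9996 genes that passed the 5% minimum against other cells, 50.7% were above 0 in LEM over VEH, with a median log2 ratio of 0.01. Of the 51 replication genes among them, 18 were above 0, with a median of -0.14, and of 22 repair genes 4 were above 0, with a median of -0.41.

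Lig1 (-0.74, -1.13 to -0.34), Pcna (-0.63, -0.94 to -0.31) and Tyms (-1.04, -1.61 to -0.46) were lower in LEM. Hells went the other way (0.69, 0.19 to 1.23). By the levels given above, Pcna was also lower in LEM than in VEH in other cells, to a lesser degree, while Lig1 was slightly higher there. Rad54l, a recombination motor gene, had 20 counts in the VEH cells and 7 in the LEM cells (log2 ratio -2.71, -4.20 to -1.41), where other cells gave 0.25. Ccne1, cyclin E1, had 2 counts in VEH and 22 in LEM (2.26, 0.24 to 5.39), and Top3a, a topoisomerase that acts in recombination, 3 and 46 counts (2.74, 1.10 to 5.07). Adap1, an Arf GTPase-activating protein gene, had 4 and 44 counts (2.26, 0.80 to 4.20). Other genes at the extremes also held few counts, as Gys1, glycogen synthase 1, with 1 count in VEH and 18 in LEM. Some differences of the Mcm-high cells were those of the whole library. Pianp had 35 and 19 counts, a log2 ratio of -2.08, and -2.07 in other cells. Gapdh stood at 572 CPM in VEH and 1365 CPM in LEM, and its log2 ratio of 1.25 was also that of other cells.

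Apoe, the lipid carrier gene of the DAM program, differed more in the Mcm-high cells than in other cells. It had 410 counts in VEH and 2880 in LEM, with a median of 1 and a highest value of 71 counts in VEH cells and a median of 15 and a highest value of 192 in LEM cells. In VEH 1 cell held 17.3% of these counts, and in LEM 6.67%. The level was 652 CPM in VEH against 1436 CPM in other cells, and 1996 CPM in LEM against 2159 CPM in other cells. LEM over VEH was a log2 ratio of 1.61 (1.46 to 1.77), against 0.59 in other cells. Split by sex, it was 1.57 for cells with Xist and 2.49 for cells with Y-linked genes. Apoe was detected in 54.2% of the Mcm-high cells of VEH and 76.7% of those of LEM, close to the 54.4% and 73.2% of other cells. The interval given for Apoe leaves out the spread between cells and between mice. Whether the difference between the Mcm-high and other cells would return in further pools was not tested.

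At the level of the whole library, the libraries held 116229678 counts in VEH and 160752298 in LEM. The 8 S genes of the rule summed to 77.2 CPM in VEH and 89.4 CPM in LEM over all cells (log2 ratio 0.21, 0.17 to 0.25). Other cells supplied 73.5% and 74.3% of these counts, so most S-gene counts lay in cells that were neither Mcm-high nor mitotic. The part of free RNA in these counts was not tested. Inside the Mcm-high cells the same sum was 1118 CPM in VEH and 1010 CPM in LEM (-0.15, -0.28 to -0.01). Deposited cell names are running numbers without barcodes, so cell barcodes shared between the libraries could not be counted.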

How the data were processed

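Sorted microglia were profiled with a 10x 5' kit, 1 library of pooled mice per treatment. The authors aligned reads with Cell Ranger 8.0.0 to mm10 and deposited whole-number UMI counts per gene and cell. SoupX, which removes counts of free RNA, is named in their methods; whether it was applied to these counts is not stated. Cells in the table had at least 501 genes and at most 19999 counts, after the authors' filters. From the deposited counts, cells were chosen by the stated rule and summed per library and kind of cell. Levels are CPM, counts of those sums scaled to 1000000. Ratios have exact conditional binomial intervals and shares Clopper-Pearson intervals (scipy 1.17.1). No test was made, since a treatment had 1 library. Scrublet (scanpy 1.11.5) marked doublets, which were kept. Scripts were tested on simulated data. Genes named are those of the rule, the 4 largest ratios of each list, members named for their role, and the 10 highest and 10 lowest outside the lists and between treatments. The cells and gene lists were chosen with earlier results of these data known. Libraries held 116229678 and 160752298 counts, 59 and 133 chosen cells holding 628959 and 1443189 of them. These totals set the counting error, not the spread between cells or mice. Some genes that the naming rule covers are not reported here.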

Additional observations from a re-analysis of the deposited data

How the results depend on the processing

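No paired analysis was possible because each treatment has 1 library. For the same reason no replicate could be left out. The share of Mcm-high cells in LEM over VEH stayed inside its counting interval in 10 of 12 alternatives (other thresholds, doublets left out, each sex alone, at least 4000 counts). The log2 ratio was 0.306 under the lower rule after thinning to 4000 counts, and -0.19 when the rule itself was applied after thinning, with 9 and 11 cells. Mcm-high per mitotic cell likewise held in 11 of 12 and was -0.25 after that thinning. A minimum S sum of 20, not among the 12, gave a log2 ratio of the shares of -1.58, with 9 and 4 cells. Of the 12, leaving out cells with markers of other types kept all 59 and 133 cells. A minimum of 4000 counts kept 58 and 132 of them. Female or male cells alone, cells of at least 4000 counts, the lower thinned rule and the median over 26 replication genes were added after seeing the data. The median over the 26 replication genes detected in other cells too held in 12 of 13 alternatives and was 1.99 in VEH and 1.72 in LEM at an S sum of 12. Over all 51 genes, 25 of which passed through the Mcm-high cells alone, the medians ran from 2.39 to 2.69 and from 2.38 to 2.70. The 210 genes 2-fold higher became 394 at an S sum of 12 and 453 with a 1% detection minimum. The 6 genes 2-fold lower became 1 at a sum of 6, 74 at 12, 34 in female and 16 in male cells, 2 with other cells weighted by depth and 59 at the 1% minimum. The 563 genes 2-fold different between treatments became 255 at a sum of 6, 1606 at 12, 1424 in female and 1410 in male cells and 1139 at the 1% minimum. The DAM median was -0.041 (female) and -0.12 (weighted) in VEH and 0.14 (sum of 6), 0.43 (12) and 0.031 (weighted) in LEM. The homeostatic median in LEM was -0.13 (6), -0.23 (12) and -0.10 (weighted), below 0 in each. Fewer cells enter at 12 (17 and 39) and in 1 sex; other causes were not tested. Genes of a few counts in 59 VEH cells carry wide intervals.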
